A study of Mus musculus with 6 samples.

Results

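The transcription factors that steer mineralizing cells were followed in mDPCs, the dental papilla cells of mouse molars, on postnatal day 6. They were *Runx1*, *Runx2*, *Runx3*, *Cbfb*, *Sp7*, *Klf4*, *Nfic*, *Atf4* and *Mef2c*, found by their gene name in the deposited count table, and these 9 genes are among the 31613 of the table. All 9 passed the filter on low counts, which left 16519 genes to test. Bulk RNA was sequenced from 3 control libraries and from 3 libraries of Dmp1-Cre;Setd2fl/fl mice (cKO). The sample labels call the control genotype wild type, whereas the study's methods use Setd2fl/fl mice without the Cre transgene. All mice were on the C57BL/6J background. Each library was a pool of RNA from 3 biological replicates, so a library is not a single mouse. The study's list of animals counts fewer mice per genotype than pools without shared mice would need, so libraries of a group may not be independent. The chi-square per gene between control replicates 1 and 2 was 6.23, against 52.18 and 59.81 for the other control pairs, and it was 33.38 or more for cKO pairs. The p-values given here cover the variation among pools, and part of it may be technical. Dmp1-Cre acts in odontoblasts and leaves *Setd2* in the pulp cells that were collected with them, so each cKO library mixes deleted and undeleted cells.

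Runx proteins bind DNA through the Runt domain and work as a heterodimer with the product of *Cbfb*, which does not bind DNA but strengthens the binding. *Runx2* starts the osteoblast program, and *Sp7* (osterix), a zinc finger factor, acts downstream of it; in teeth both are present in the mesenchyme that gives rise to odontoblasts, the cells that secrete dentin. *Klf4* and *Nfic* are factors of odontoblast differentiation, *Nfic* being best known for its role in root formation. *Atf4* controls amino acid supply and the integrated stress response and can work with Runx2 at the osteocalcin promoter, and *Mef2c* acts in hypertrophic cartilage and in osteocytes.

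Library totals lay between 18557647 and 19210750 counts. *Setd2* RNA was at 98.0, 96.5 and 92.0 CPM (counts scaled to library size by TMM) in control and at 102, 98.5 and 96.0 CPM in cKO libraries. The *Setd2* count covers the entire gene and every cell collected, and so does not check the labels. All 8 markers of dental papilla and pulp were present, and their sum ranged from 6130 to 8158 CPM in control and from 6327 to 9636 CPM in cKO libraries. The sum of 11 odontoblast markers ranged from 70990 to 81070 CPM in control libraries. In cKO libraries this sum was 5908, 4012 and 36650 CPM, so cKO replicate 3 lay nearest to the controls. Most of the sum comes from *Col1a1* and *Dspp*, which are also among the output genes below and stood at 54160 and 14170 CPM in control replicate 1. Of the 11 markers, 8 passed the study's thresholds as lower, against 2.71% of all genes tested, while *Notum* and *Ifitm5* held 103% and 95.7% of the control level. Replicate 3 of both groups also stood apart by its markers of dental epithelium, described with *Runx1* and *Klf4*.

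The 3 Runx genes are shown with a stretch of sequence at their upstream promoters, because each carries the recognition core of its own protein family there. RefSeq promoter windows of GRCm38.p6 run from 250 bases before to 50 bases after an annotated start. In such windows all 3 held a pair of Runx cores whose first bases lie 8 bases apart on the same strand. The core was searched as TGTGGT on both strands. It reads ACCACA here, in capitals, because it lies on the strand opposite to the gene. The fourth stretch is from *Bglap*, the osteocalcin gene, a classical target of Runx2.
*Runx1*, chr16:92826025-92826054, minus strand: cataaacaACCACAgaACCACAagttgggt
*Runx2*, chr17:44814583-44814612, minus strand: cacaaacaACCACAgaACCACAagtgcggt
*Runx3*, chr4:135120503-135120532, plus strand: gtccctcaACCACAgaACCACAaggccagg
*Bglap*, chr3:88384581-88384610, minus strand: ccgcaatcacctACCACAgcatcctttggg
The first bases of the paired cores lay at 29 and 37 in *Runx1*, at 24 and 32 in *Runx2*, and at -134 and -126 in *Runx3*. They are counted from 1 at the annotated RefSeq start. In *Runx1* and *Runx2* that start lies inside the gene bounds given below, which come from the deposited table. The single core of *Bglap* began at -132, and *Runx2* held another at -80. A pair of this kind was found in 7 of 32851 windows (0.02%), while at least 1 core was found in 16.8% of them. Among the other members *Cbfb*, *Klf4* and *Nfic* held no Runx core but 4 copies each of the GC box GGGCGG, the motif bound by Sp and Klf proteins. A second window of *Runx3* held 3 copies and 1 window of *Mef2c* held 1. At least 1 copy on either strand was in 5 of 12 member windows, against 35.7% of all windows. *Atf4* and *Mef2c* held no Runx core, and *Sp7* had no window in the table. The Atf4 element TGATGCAA was in no member window and in 0.9% of all windows. These letters are matches in the reference sequence, and no binding was measured here.

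None of the 9 factors passed the thresholds that the study set, a log2 fold change of 0.58 or more in either direction with p under 0.05 before adjustment. By edgeR, 0 members were called lower, against 2.71% of all genes tested, and 0 higher, against 1.1%. At an adjusted p under 0.05 edgeR called 0 members and 0% of all genes. DESeq2 called 0 members there, against 117 genes lower and 24 higher of 16519. Limma voom with quality weights called 2 members lower (*Sp7* and *Runx3*), against 5.98% of all genes lower. By edgeR at an unadjusted p under 0.05 alone, 2 members (*Sp7* and *Runx3*) were lower, against 4.41% of all genes, and 0 were higher, against 3.17%. In the same 2 members all cKO libraries lay below all control libraries, which held for 7.98% of all genes. For 4 members (*Runx2*, *Cbfb*, *Atf4* and *Mef2c*) the 95% interval of the log2 fold change lay inside -0.58 to 0.58, against 38.9% of all genes. When replicate numbers entered the fit as a block, this held for 7 members, all but *Sp7* and *Runx3*, against 54.5% of all genes. In bulk RNA, fewer cells of a type and less RNA per cell cannot be told apart.

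**Figure D1:**
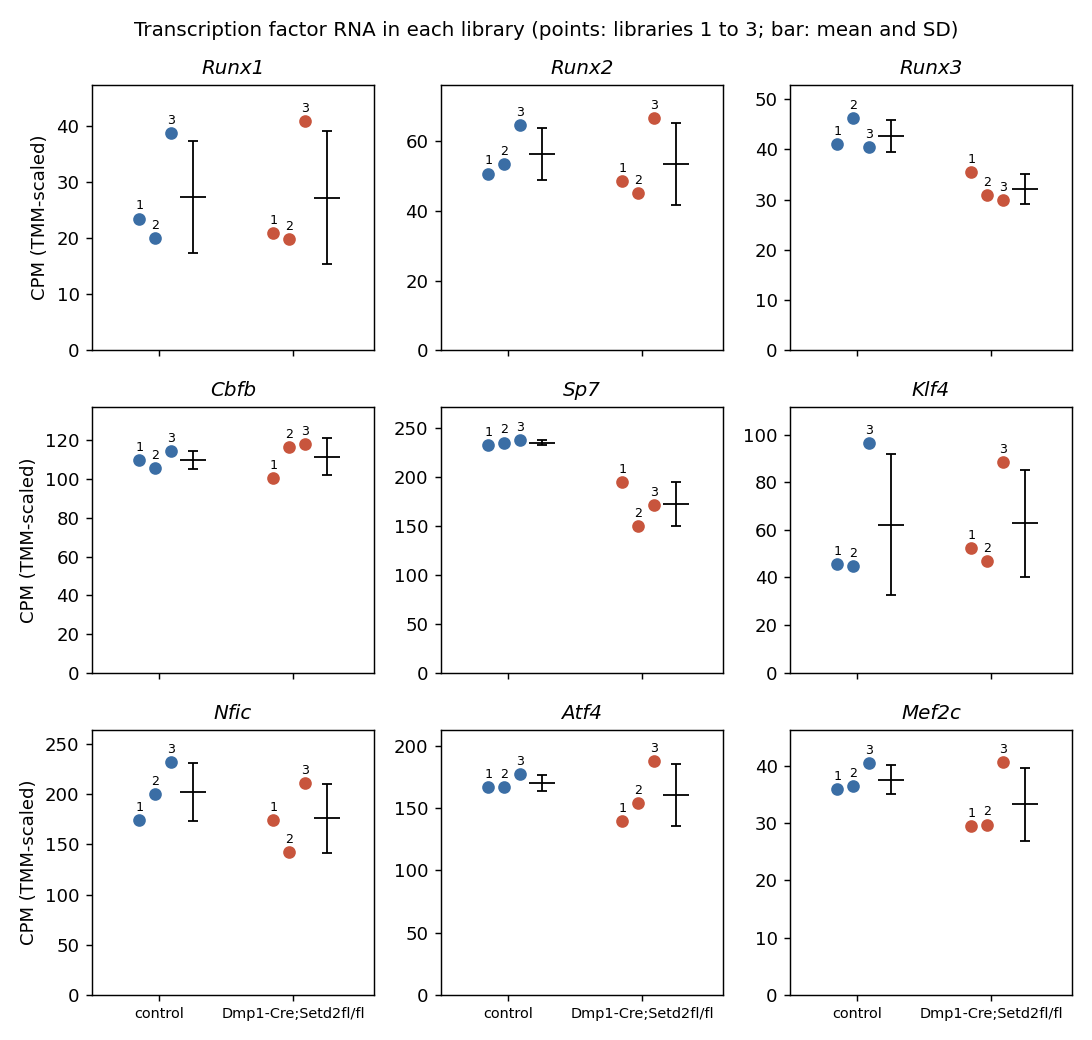
Level of each transcription factor in CPM (TMM-scaled, linear axis from 0) in control (blue) and Dmp1-Cre;Setd2fl/fl (red) libraries; points are libraries numbered 1 to 3, and the black bar gives the mean and SD. *Sp7* and *Runx3* are the 2 genes whose groups do not overlap, and replicate 3 stands above replicates 1 and 2 in both groups for *Runx1* and *Klf4*.

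*Sp7* (ENSMUSG00000060284; chromosome 15, 102356606 to 102367182 in GRCm38, as are all positions here, minus strand) held the most even control values of the 9 genes. It was at 233, 235 and 238 CPM in control and at 195, 150 and 172 CPM in cKO libraries. Every cKO library lay below every control library, and the cKO values were spread more widely. The means were 235 ± 2.59 and 172 ± 22.6 CPM (SD, n = 3 each), so that cKO libraries held 73.2% of the control level. On the log2 scale the change was -0.45, with a standard error (SE) of 0.12 and a 95% interval of -0.74 to -0.16 (adjusted p = 0.625 by edgeR). An exact two-sided permutation test of the 6 values gave p = 0.1, the smallest that 3 against 3 libraries allow. The value ranged from -0.55 to -0.32 over 14 other settings, with an unadjusted p under 0.05 in all 14. Limma voom gave an adjusted p of 0.0450 for *Sp7*, in a fit that called 5.98% of all genes lower at an adjusted p under 0.05. The odontoblast marker sum was lower in the same libraries but in another order: cKO replicate 3 had by far the highest marker sum of the cKO libraries and a middle value of *Sp7*. The sum of osteoblast and osteocyte markers was lower in the same libraries as well. It was 1529, 1411 and 1348 CPM in control and 245, 297 and 476 CPM in cKO libraries. Of 8 such markers, 7 were in the table, 6 were tested and 3 were called lower, against 2.71% of all genes. Of the rest, *Cpz* held 19.3% of the control level, and *Ibsp* and *Fbln7* held 89.9% and 93.5%. *Fbln7* was at 184.1, 259.2 and 70.65 CPM in cKO libraries, against 196.5, 200.4 and 152.7 CPM in control. *Bglap*, *Bglap2* and *Ibsp* are both on that list and among the output genes. The part of odontoblast or osteoblast number in the *Sp7* difference was not tested.

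*Runx3*, a Runx gene best known in the immune and nervous systems and also expressed in skeletal tissue, was the other member with separate groups. The gene (ENSMUSG00000070691) lies on chromosome 4 from 135120652 to 135177990 on the plus strand. It was at 41.1, 46.3 and 40.5 CPM in control and at 35.5, 31.0 and 29.98 CPM in cKO libraries. The lowest control library lay above the highest cKO library, and the means were 42.6 ± 3.20 and 32.1 ± 2.94 CPM (SD, n = 3 each). The cKO level was 75.4% of control, or -0.41 on the log2 scale (SE 0.12, 95% interval -0.68 to -0.13, adjusted p = 0.625 by edgeR). Its unadjusted p stayed under 0.05 in 13 of 14 other settings and was 0.0548 without control replicate 2. Voom gave an adjusted p of 0.0439, and the exact permutation p was 0.1. *Runx3* and *Sp7* also followed each other over the 6 libraries (Pearson r = 0.922 of log2 CPM), a description in which the group difference itself takes part. Counts of T cell and B cell markers were low: the sum of 8 lymphocyte markers ranged from 12.1 to 15.7 CPM in control and from 9.99 to 14.9 CPM in cKO libraries. Of these 8 markers, 2 passed the filter on low counts. Their part in the *Runx3* difference was not tested.

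*Runx2* did not follow *Sp7*. The gene (ENSMUSG00000039153) lies on chromosome 17 from 44495987 to 44814797 on the minus strand. It was at 50.7, 53.5 and 64.6 CPM in control and at 48.6, 45.0 and 66.7 CPM in cKO libraries. The groups overlapped, with replicate 3 highest in each. Its log2 fold change was -0.07 (SE 0.18, 95% interval -0.50 to 0.35, adjusted p = 0.924 by edgeR). *Runx2* shares 362 exonic bases with *Supt3* and 519 with *Runx2os1*, both on the opposite strand, and counting without strand cannot tell reads of overlapping genes apart. *Supt3* had 1451 counts and *Runx2os1* 42 in all libraries together, against 6207 for *Runx2*.

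*Runx1*, the Runx gene of blood cell development that is also expressed in skeletal and dental progenitors and in epithelium, had equal group means. The gene (ENSMUSG00000022952) lies on chromosome 16 from 92601466 to 92826149 on the minus strand. It was at 23.4, 19.9 and 38.7 CPM in control and at 20.9, 19.7 and 40.9 CPM in cKO libraries. Replicate 3 was 1.78 times the mean of replicates 1 and 2 in control and 2.01 times in cKO libraries. The change was -0.01 on the log2 scale, with a wide 95% interval of -0.87 to 0.86 (adjusted p = 0.996 by edgeR). In the blocked fit it was -0.03 with an interval of -0.29 to 0.23.

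*Cbfb*, the shared partner of the Runx proteins, varied little between libraries. The gene (ENSMUSG00000031885) lies on chromosome 8 from 105170674 to 105217989 on the plus strand. Its levels were 110, 106 and 115 CPM in control and 100, 117 and 118 CPM in cKO libraries. The groups overlapped, with a log2 fold change of 0.02 (SE 0.11, 95% interval -0.23 to 0.28, adjusted p = 0.967 by edgeR).

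*Klf4* showed the same pattern as *Runx1*. The gene (ENSMUSG00000003032) lies on chromosome 4 from 55527143 to 55532466 on the minus strand. It was at 45.7, 44.6 and 96.5 CPM in control and at 52.6, 47.1 and 88.5 CPM in cKO libraries. Replicate 3 was 2.14 times the mean of the other replicates in control and 1.78 times in cKO libraries, and the groups overlapped. Its log2 fold change was 0.01 (95% interval -0.89 to 0.91, adjusted p = 0.995 by edgeR), and 0.05 with the block (interval -0.19 to 0.29).

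*Nfic* (ENSMUSG00000055053; chromosome 10, 81396186 to 81455635, minus strand) was at 174, 200 and 232 CPM in control and at 175, 142 and 211 CPM in cKO libraries. The lowest value was cKO replicate 2, and the other cKO libraries lay within the control range. The difference was -0.20 on the log2 scale (95% interval -0.62 to 0.22, adjusted p = 0.777 by edgeR).

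*Atf4* and *Mef2c* resembled each other across libraries, with r = 0.947 of log2 CPM. *Atf4* (ENSMUSG00000042406; chromosome 15, 80255184 to 80257541, plus strand) was at 167, 167 and 177 CPM in control and at 140, 154 and 188 CPM in cKO libraries. *Mef2c* (ENSMUSG00000005583; chromosome 13, 83504034 to 83667080, plus strand) was at 35.9, 36.4 and 40.5 CPM in control and at 29.5, 29.7 and 40.7 CPM in cKO libraries. In both genes cKO replicates 1 and 2 lay below all controls and cKO replicate 3 above them. On the log2 scale the change was -0.09 for *Atf4* (95% interval -0.40 to 0.23, adjusted p = 0.882 by edgeR). For *Mef2c* it was -0.18 (95% interval -0.54 to 0.19, adjusted p = 0.774 by edgeR). Without cKO replicate 3 the *Mef2c* value was -0.35 (adjusted p = 0.184 by edgeR).

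Levels between genes were compared per kilobase of exon, using the union of annotated exons. The order depends on these lengths. Without the division, *Runx2* stood above *Runx3* in control means, at 56.3 against 42.6 CPM (exon lengths 8.84 and 5.01 kb). *Sp7* likewise stood above *Atf4*, at 235.5 against 170.2 CPM (3.79 and 2.37 kb). In control libraries *Atf4* was highest at 71.7 ± 2.59 CPM per kb (SD, n = 3), and *Sp7* followed at 62.1 ± 0.686. The 2 genes did not overlap in either group. *Nfic* at 30.2 ± 4.32, *Cbfb* at 28.4 ± 1.18 and *Klf4* at 19.8 ± 9.41 CPM per kb came next, and neighbours in this order overlapped. *Runx3* at 8.50 ± 0.638 CPM per kb stood above *Runx2* at 6.37 ± 0.832 and *Runx1* at 2.16 ± 0.787 in control libraries, with no overlap between *Runx3* and *Runx2*. In cKO libraries *Runx3* at 6.41 ± 0.586 and *Runx2* at 6.05 ± 1.32 CPM per kb overlapped. *Mef2c* was at 2.19 ± 0.147 CPM per kb in control libraries and overlapped with *Runx1*. The per-kilobase level of *Cbfb* was above that of each Runx gene in all 6 libraries.

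Replicate 3 was the highest library of its group in both groups for 7 members, all but *Sp7* and *Runx3*. *Runx1* and *Klf4* correlated at r = 0.960 and *Runx1* and *Runx2* at r = 0.935 over the 6 libraries, which share the replicate 3 contrast. Markers of dental epithelium moved with them. All 8 epithelial markers were tested and none was at 0, and their sum was 7294, 2655 and 30220 CPM in control and 7128, 2210 and 49950 CPM in cKO libraries. Replicate 3 was highest in both groups for 6 of the 8 (*Amelx*, *Ambn*, *Enam*, *Krt14*, *Krt5* and *Cdh1*), while *Amtn* did not follow. *Epcam* was highest in replicate 3 in cKO libraries (2.06, 2.07 and 10.9 CPM) but not in control (11.1, 8.05 and 10.7 CPM). The sum of 6 endothelial markers, none at 0, was also highest in replicate 3, at 377 CPM in control against 242 and 268, and at 594 CPM in cKO against 248 and 271. Within it *Erg* was lowest in control replicate 3 (17.9, 21.2 and 14.8 CPM), and *Emcn* was not highest there (29.1, 32.7 and 32.3 CPM). Schwann cell and neuron markers in replicate 3 summed to 1.80 times the mean of the other replicates in control and 1.81 times in cKO libraries, and red blood cell markers to 1.71 and 1.59 times. The part of these cells in the *Runx1* and *Klf4* levels was not tested. With replicate 3 left out of both groups, the log2 fold change was -0.09 for *Runx1*, 0.15 for *Klf4* and -0.15 for *Runx2*, none with an unadjusted p under 0.05 by edgeR.

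**Figure D2:**
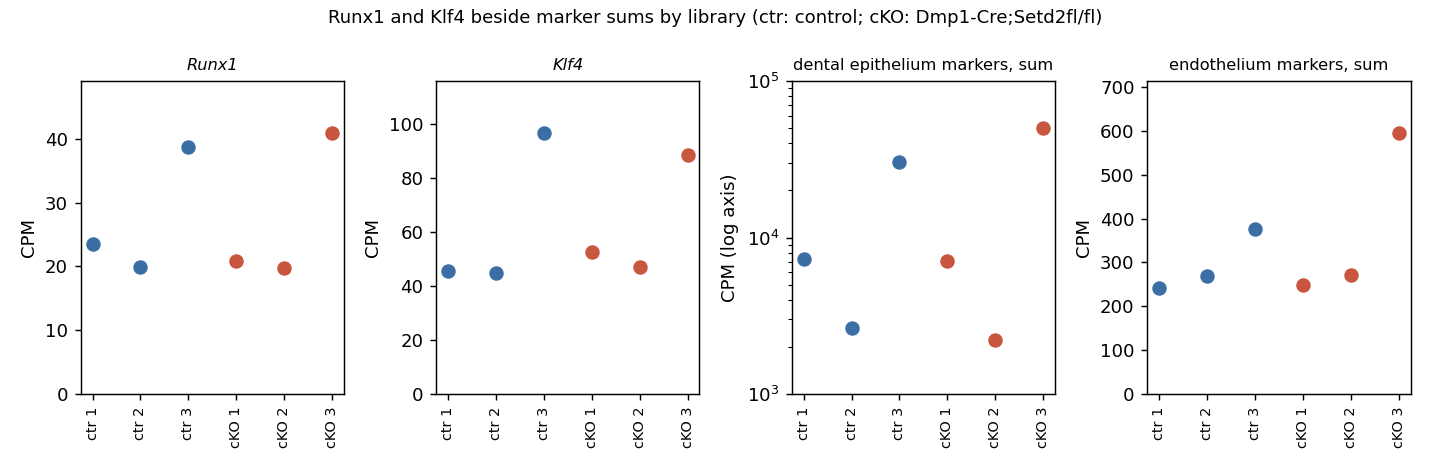
Levels of *Runx1* and *Klf4* and summed levels of 8 dental epithelium and 6 endothelium markers in each library, in CPM; the epithelium panel has a log axis and the others start at 0. Replicate 3 of control (ctr, blue) and of Dmp1-Cre;Setd2fl/fl (cKO, red) is the highest library of its group in all 4 panels.

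Several genes listed as outputs of the Runx2 and Sp7 program were far lower in cKO mDPCs. Whether either factor drives each of them in these cells was not tested. Of 18 such genes of bone and dentin matrix and its mineral, 17 were in the table and 13 were tested. By edgeR 7 passed the study's thresholds as lower, against 2.71% of all genes, and 0 as higher, against 1.1%. The median log2 fold change of the 13 was -1.64, beside 0.02 over all genes tested. The 7 were *Bglap2*, *Phex*, *Bglap*, *Dmp1*, *Col1a1*, *Col1a2* and *Dspp*. In each of them all cKO libraries lay below all controls, which held for 7.98% of all genes. None of the 7 had an adjusted p under 0.05 by edgeR. Several of these genes were known to be lower from earlier results of the same libraries, so they are no independent evidence of direction. The list was chosen with those results known.

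*Dspp*, the gene of dentin sialophosphoprotein, the most abundant dentin protein after collagen, was at 14170, 14370 and 13900 CPM in control and at 436, 215 and 5299 CPM in cKO libraries. Per CPM of *Sp7* in the same library, *Dspp* stood at 60.8, 61.0 and 58.4 CPM in control and at 2.23, 1.43 and 30.9 CPM in cKO libraries. *Bglap*, with the Runx core printed above, was at 859, 772 and 701 CPM in control and at 21.9, 10.8 and 199 CPM in cKO libraries. In all 3 series of values cKO replicate 3 was nearest to the controls and yet outside their range. *Bglap* had a log2 fold change of -3.33 (SE 1.07, adjusted p = 0.626 by edgeR), and *Bglap2* one of -3.92 (SE 0.96, adjusted p = 0.587 by edgeR). These are near-identical neighbours, so the split of reads between them is uncertain. *Dmp1*, a mineral nucleator and the gene whose promoter drives the Cre, was at 13.9, 18.8 and 17.7 CPM in control and at 4.83, 1.27 and 8.91 CPM in cKO libraries.

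The other 6 tested output genes did not pass the thresholds. *Alpl*, the alkaline phosphatase of mineralizing cells, was at 1141, 1343 and 1697 CPM in control and at 1162, 1211 and 1850 CPM in cKO libraries, a log2 fold change of 0.01 (95% interval -0.54 to 0.57). *Ibsp* (bone sialoprotein) had a value of -0.15, *Spp1* (osteopontin) 0.22, *Mmp13* (collagenase 3) 0.66, *Tnfrsf11b* (osteoprotegerin) 0.49 and *Col10a1*, a collagen of hypertrophic cartilage, -0.27. Their intervals all included 0. A Runx core lay in a promoter window of *Spp1* and of *Mmp13*, which were not called, as well as of *Bglap* and of *Dmp1*, which were. *Spp1* and *Dmp1* each had another window without a core. Over the list 5 of 19 windows held a core, against 16.8% of all windows. *Bglap2*, *Col1a1*, *Dspp* and *Tnfrsf11b* had no window. In the blocked fit, 2 of the 13 (*Col1a1* and *Col1a2*) passed the study's thresholds, against 4.37% of all genes lower in that fit. The other 5 were larger in size there and did not pass, with log2 fold changes of -4.50 for *Bglap*, -4.62 for *Bglap2*, -4.33 for *Dspp*, -3.75 for *Phex* and -1.94 for *Dmp1*. Without cKO replicate 3, 7 passed them as lower, against 6.88% of all genes in that fit, and 1 as higher (*Tnfrsf11b*, 0.76), against 4.01%. In that fit 6 had an adjusted p under 0.05 by edgeR, all of the 7 but *Dmp1*, against 2.65% of all genes lower. Leaving out any other single library left 3 or 4 past the study's thresholds as lower, and without cKO replicate 1 also *Mmp13* as higher (0.98). *Dspp* lost its call in each of those fits at a log2 fold change of -2.86 to -2.30.

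**Figure D3:**
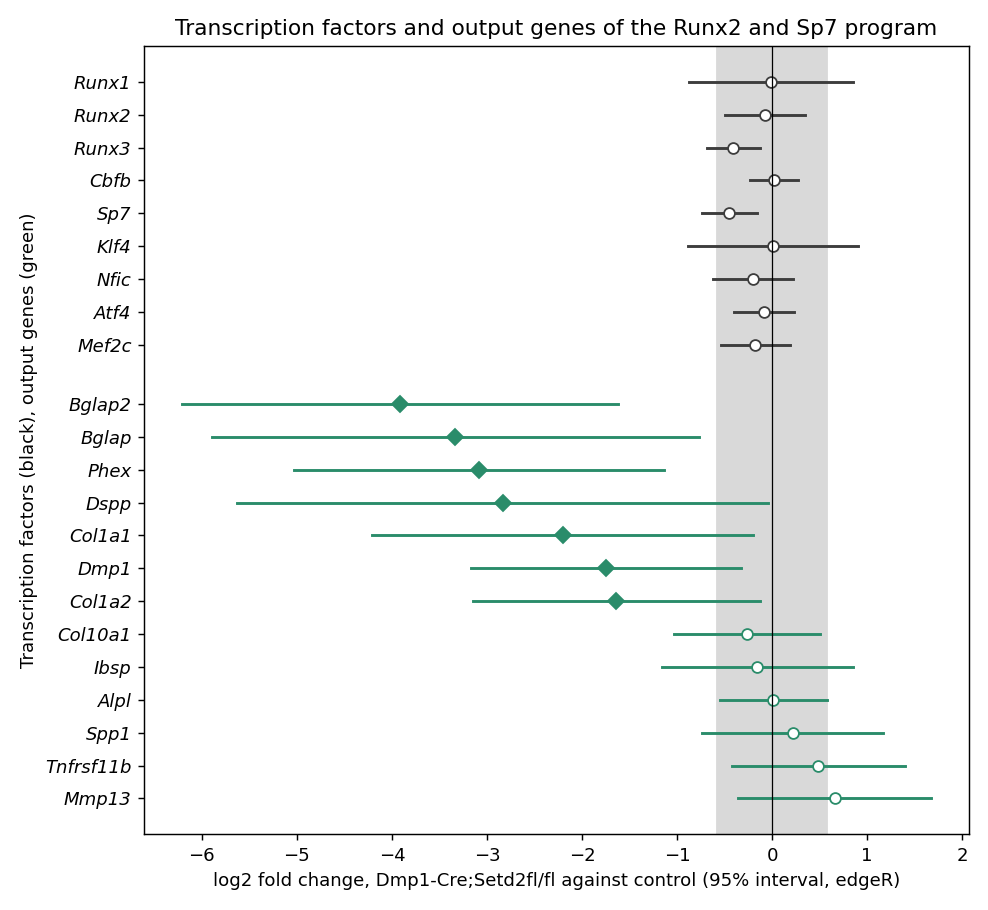
Log2 fold change (Dmp1-Cre;Setd2fl/fl against control, linear axis) with its 95% interval by edgeR for the 9 transcription factors (black) and 13 output genes (green); filled diamonds pass the study's thresholds, and the gray band spans -0.58 to 0.58. The factors lie between -0.45 and 0.02. The 7 output genes that passed lie between -3.92 and -1.64, and the rest of the output genes between -0.27 and 0.66.

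**Figure D4:**
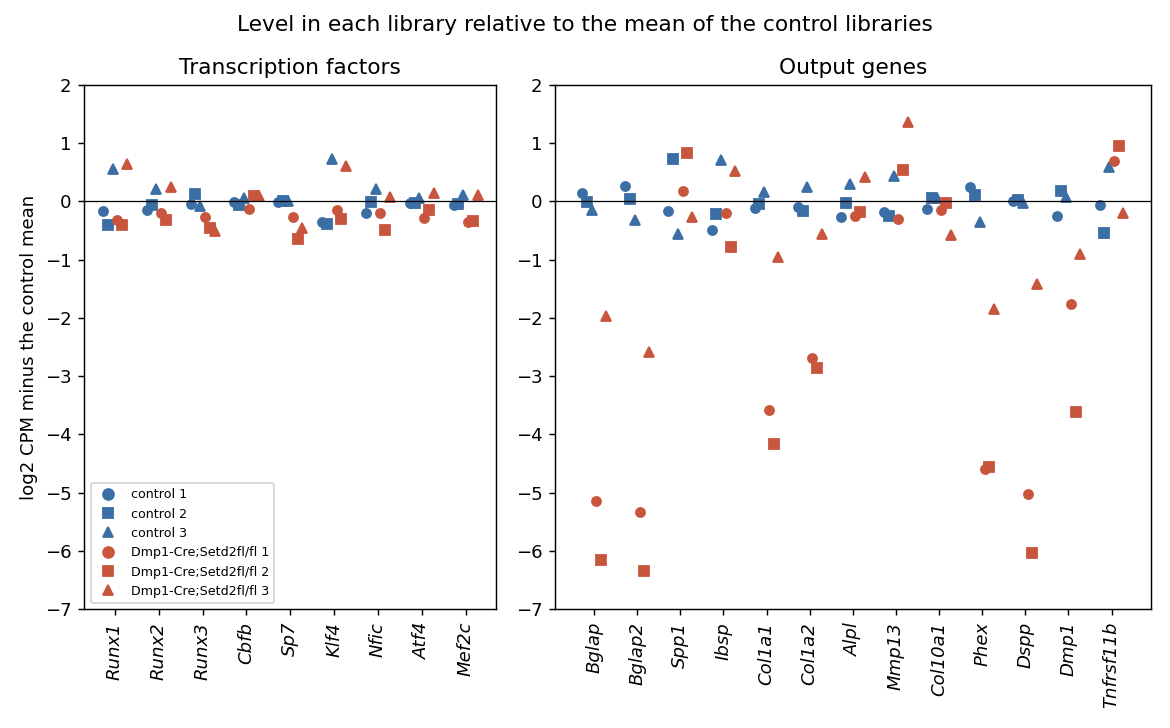
Log2 CPM of each gene in each library minus the mean of the 3 control libraries, for the 9 transcription factors and the 13 output genes on the same scale; color gives the group and marker shape the replicate. The cKO values of *Sp7* are -0.27, -0.65 and -0.46, while those of *Dspp* are -5.02, -6.04 and -1.42.

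Of 33 partners and regulators of the Runx proteins, all tested, 1 passed the study's thresholds as lower and 1 as higher. These make 6.06% of the list, beside 3.81% of all genes tested (2.71% lower and 1.1% higher), and the median log2 fold change was 0.07. The lower gene was *Tle2*, a Groucho-type corepressor that Runx proteins recruit. It was at 874, 872 and 540 CPM in control and at 596, 341 and 499 CPM in cKO libraries, which is -0.67 on the log2 scale (SE 0.26, adjusted p = 0.647 by edgeR). The groups overlapped, because control replicate 3 lay below cKO replicate 1. Without control replicate 1 or 2, or without cKO replicate 2 or 3, *Tle2* did not pass the thresholds (log2 fold changes of -0.56, -0.56, -0.48 and -0.70).

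The higher gene was *Zbtb16*, a zinc finger factor that acts upstream of *Runx2* in osteoblast cultures and is known to respond to glucocorticoids. It was at 0.583, 0.684 and 0.340 CPM in control and at 5.64, 11.3 and 0.597 CPM in cKO libraries. Replicates 1 and 2 of the cKO lay far above the controls, and replicate 3 lay within their range. The change was 3.43 on the log2 scale (SE 0.98, adjusted p = 0.625 by edgeR). With the block the adjusted p was 0.0414, in a fit that called 0.176% of all genes higher at that threshold. The sum of 6 neutrophil markers moved in the same way, at 20.5, 11.7 and 3.46 CPM in control and at 67.2, 134 and 4.67 CPM in cKO libraries. Of the 6 markers 5 were tested, 2 were called higher, against 1.1% of all genes, and none was at 0. The part of neutrophils in the *Zbtb16* difference was not tested. *Smurf2*, a ubiquitin ligase of the Smad pathway, and *Hes1*, a Notch target that can bind Runx2, had the next smallest p. Their log2 fold changes were 0.27 and -0.50, with an adjusted p of 0.650 for each by edgeR, and neither reached the fold threshold.

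Some relatives of the factors passed the thresholds. Of 29 other Sp, Klf, Nfi, Mef2, Atf and Creb genes, 27 were tested, and the study's thresholds called 1 lower and 3 higher. The 4 calls make 14.8% of the tested genes of the list, beside 3.81% of all genes tested (2.71% lower and 1.1% higher), and the difference was not tested. Their median log2 fold change was 0.15. The 3 higher genes were Krüppel-like factors, relatives of *Klf4*. *Klf9* was at 13.9, 14.3 and 19.2 CPM in control and at 30.04, 67.5 and 25.5 CPM in cKO libraries. *Klf15* was at 15.5, 17.6 and 14.7 CPM in control and at 21.9, 36.6 and 19.7 CPM in cKO libraries. In both genes, known as glucocorticoid-responsive, all cKO libraries lay above all controls, which held for 7.26% of all genes, and cKO replicate 2 was highest. On the log2 scale *Klf9* changed by 1.38 (SE 0.39, adjusted p = 0.625 by edgeR) and *Klf15* by 0.71 (SE 0.25, adjusted p = 0.626 by edgeR).

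*Klf6*, an injury-responsive Krüppel-like factor, was at 122, 126 and 107 CPM in control and at 189, 279 and 124 CPM in cKO libraries. Here cKO replicate 3 lay within the control range. Its log2 fold change was 0.74 (SE 0.28, adjusted p = 0.638 by edgeR). Without cKO replicate 2 the values were 0.82 for *Klf9*, 0.38 for *Klf15* and 0.40 for *Klf6*, and of the 3 genes *Klf9* alone still passed the study's thresholds in that fit. *Klf15* also did not pass them without control replicate 1 (0.69) or 3 (0.65), and *Klf6* passed them in none of the fits without 1 library other than cKO replicate 3, where its value was 0.98. Neutrophil markers were again highest in cKO replicate 2, and their part in these differences was not tested.

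The lower family member was *Creb3l1*, a membrane-bound factor that is cleaved in the Golgi and promotes type I collagen transcription. It was at 160, 170 and 233 CPM in control and at 51.2, 40.6 and 143 CPM in cKO libraries. All cKO libraries lay below all controls, with replicate 3 the highest of each group. It did not pass the study's thresholds without control replicate 1, 2 or 3 (-1.36, -1.32 and -1.08) or without cKO replicate 1 or 2 (-1.02 and -0.94). Without cKO replicate 3 its log2 fold change was -2.03 (adjusted p = 0.00219 by edgeR), against -1.26 over all libraries.

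No Atf4 target passed the study's thresholds by edgeR over all libraries, against 2.71% of all genes lower and 1.1% higher. All 30 listed genes of amino acid supply, transfer RNA charging and the stress response were tested. At an unadjusted p under 0.05 alone 1 was lower, against 4.41% of all genes, and 1 higher, against 3.17%. The median log2 fold change of the 30 was -0.00. *Pck2*, the mitochondrial phosphoenolpyruvate carboxykinase, was at 452, 454 and 482 CPM in control and at 358, 350 and 415 CPM in cKO libraries. *Nars*, the asparaginyl transfer RNA synthetase, was at 103, 103 and 103 CPM in control and at 119, 137 and 116 CPM in cKO libraries. The groups were apart in both genes and in opposite directions, with log2 fold changes of -0.31 and 0.27 (adjusted p = 0.636 and adjusted p = 0.643 by edgeR). *Nupr1*, a stress-induced chromatin protein, had a log2 fold change of -1.28, and *Cebpb*, a bZIP partner of Atf4, one of 0.37, and neither passed the thresholds. With the block, 2 Atf4 targets passed the study's thresholds as lower, *Nupr1* among them, against 4.37% of all genes lower in that fit. With voom 4 were lower and 0 higher, against 6.67% of all genes lower in that fit. The counts were also 4 and 0 without cKO replicate 3, where 6.88% of all genes were lower. They were the same without replicate 3 of both groups, where 7.55% of all genes were lower. *Chac1*, an enzyme that breaks down glutathione, was chosen after its values were seen. It was at 21.5, 15.8 and 36.0 CPM in control and at 1.15, 1.27 and 17.9 CPM in cKO libraries. Only cKO replicate 3 lay within the control range, and the log2 fold change was -1.85 (SE 1.05, adjusted p = 0.696 by edgeR).

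**Figure D5:**
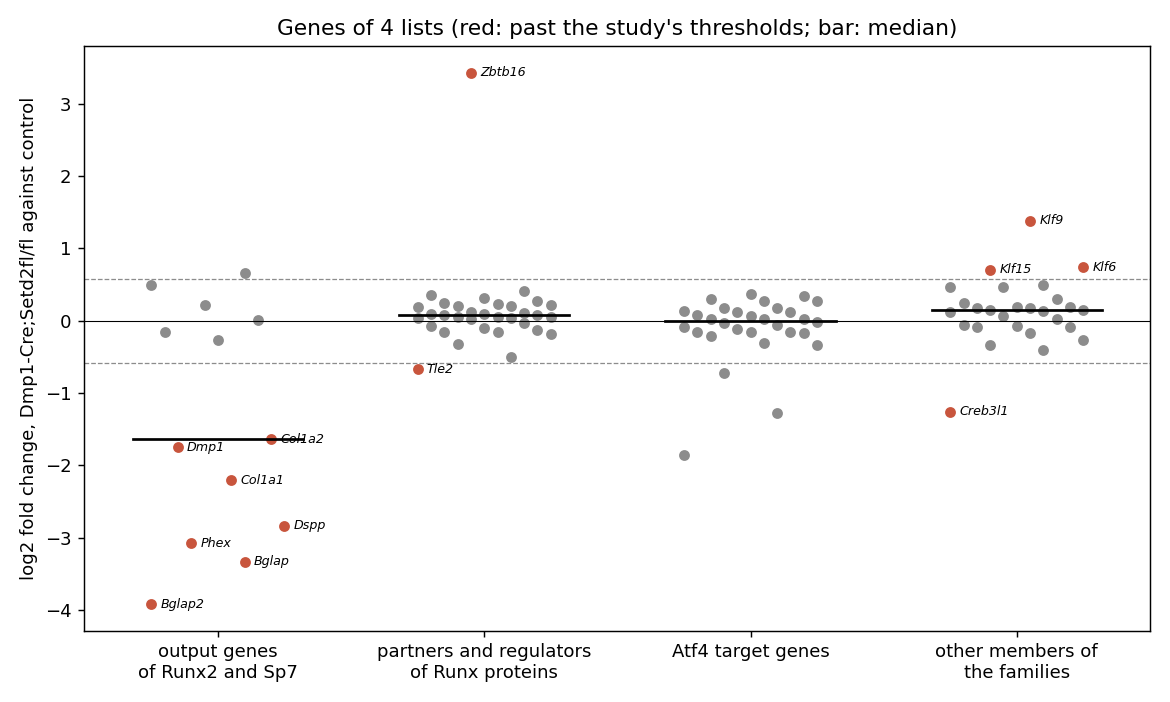
Log2 fold change (Dmp1-Cre;Setd2fl/fl against control) of every tested gene in 4 lists; red points pass the study's thresholds and are named, black bars are medians, and dashed lines mark -0.58 and 0.58. The medians are -1.64 for output genes, 0.07 for Runx partners and regulators, -0.00 for Atf4 targets and 0.15 for family members.

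The genes most alike to each factor were taken by Pearson correlation of log2 CPM over the 6 libraries, among 10484 tested genes with a mean of at least 10 CPM. With so many genes and 6 libraries such values are high by choice and are a description. For *Sp7* they were *B4galt3*, *Khsrp* and *Rusc2* (r = 0.992, 0.991 and 0.988), and for *Runx3* they were *Akap12*, *Pbxip1* and *Ggt7* (0.995, 0.989 and 0.985). For *Runx2* they were *Tubb6*, *Git1* and *Epn1* (0.999, 0.998 and 0.997), for *Runx1* *Clu*, *Crtac1* and *Tmem108* (0.997, 0.997 and 0.996), and for *Cbfb* *Golt1b*, *Sft2d3* and *Zdhhc6* (0.996, 0.995 and 0.980). *Klf4* was most like *Epha3*, *Orai2* and *Gpc3* (0.995, 0.995 and 0.994), and *Nfic* most like *Sf3a2*, *Alg3* and *Wee1* (0.998, 0.995 and 0.995). *Atf4* was most like *Acpp*, *Paxx* and *Dnlz* (0.995, 0.995 and 0.993), and *Mef2c* most like *Npdc1*, *Creld1* and *Sh3tc1* (0.999, 0.998 and 0.996). None of the tested output genes was among them.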

How the data were processed

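RNA-seq libraries of mDPCs were analysed from 3 control and 3 Dmp1-Cre;Setd2fl/fl samples. The deposited table holds whole-number counts per gene, which the authors made by HISAT2 alignment and unstranded HTSeq counting. Bowtie2, DESeq2 and GRCm39 are also named in the submitters' processing notes. The table's columns of the authors' own comparison (fold changes, log2 fold changes and p-values) were not used. Positions come from the deposited table and fall within 1000 bases of a gene end for 96.4% of 24503 genes in GRCm38.p6 RefSeq but for 3.4% of 30436 genes in GRCm39, so they are given as GRCm38.

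Counts were tested in R 4.3.3 by the robust quasi-likelihood method of edgeR 4.0.16, after filterByExpr (minimum count 10) and TMM scaling. P-values were adjusted by Benjamini-Hochberg over 16519 genes. Intervals are the log2 fold change and its standard error with the fit's degrees of freedom. CPM are TMM-scaled, and log2 CPM use a prior count of 2. Exon lengths are from GENCODE vM39 by gene ID, and promoter windows from RefSeq. Windows were found for 8 of 9 members and 14 of 18 output genes. The common dispersion over all genes was 0.064, a coefficient of variation between libraries of 25.3%. This is a single value for all genes, and single genes differ from it. The control libraries of *Sp7* had an SD of 2.59 around 235.5 CPM. Counting error weighs more in genes of few counts, such as *Zbtb16* at 0.340 to 0.684 CPM in control libraries.

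Members and lists were chosen with earlier results of these data known. Named genes were every member, the called genes of each list (up to 8 by smallest p, and at least 4), the 3 most alike genes of each member, and markers that moved with a member. Alternatives were DESeq2 1.42.0, limma 3.58.1 (voom with quality weights), RLE size factors, library sizes that leave out the 100 highest genes, no or a stricter filter on low counts, the replicate block, each library or both replicates 3 left out, and an adjusted p under 0.1. The main fit took no account of replicate numbers, which entered only in the alternative with the block. Deviations from group means of same-numbered libraries correlated at 0.453, 0.465 and 0.663, but control 2 and cKO 1 also reached 0.455. Replicate 3 of 1 group against replicates 1 and 2 of the other gave -0.583 to -0.508. These values set replicate 3 apart and do not show whether replicates 1 and 2 are paired. Fits were tested on simulated counts that were drawn independently for each library. These held no shift of replicate 3, so they do not show how the fits behave with it.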

Additional observations from a re-analysis of the deposited data

How the results depend on the processing

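The members' calls at the study's thresholds stayed at 0 in every alternative run. Voom called 2 members lower at an adjusted p under 0.05, against 5.98% of all genes lower, and the cause was not tested. Among output genes, 7 were lower, but 2 without a filter on low counts and 2 with the replicate block. Leaving out 1 library gave 3 to 7 lower, 0 to 1 higher and 0 to 6 at an adjusted p under 0.05. Voom and the fit without both replicates 3 each gave 1 higher and 8 adjusted, and DESeq2 gave 1 adjusted. For partners, leaving out 1 library gave 0 to 1 lower, 1 to 2 higher and 0 to 2 adjusted. Voom gave 2 lower and 5 adjusted, the fit without both replicates 3 gave 3 lower and 3 adjusted, DESeq2 and the block gave 1 adjusted each, and the stricter filter, which drops *Zbtb16*, gave 0 higher. Of Atf4 targets, 0 were lower, but 1 with DESeq2, the stricter filter, RLE size factors or library sizes that leave out the 100 highest genes, 2 with the block, and 4 with voom or without both replicates 3, which each also gave 4 adjusted. Leaving out 1 library gave 0 to 4 lower and 0 to 3 adjusted. Of family members, 1 was lower, but 0 without a filter, and 2 with voom or without both replicates 3, with 4 and 2 adjusted, and DESeq2 gave 1 adjusted. Leaving out 1 library gave 0 to 2 lower, 1 to 3 higher and 0 to 2 adjusted.

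Log2 fold changes near 0 changed sign. Over fits without 1 library, *Runx1* ranged from -0.43 to 0.32, *Runx2* from -0.27 to 0.03, *Cbfb* from -0.02 to 0.10, *Klf4* from -0.32 to 0.47, *Atf4* from -0.21 to 0.01, *Spp1* from -0.13 to 0.67, *Ibsp* from -0.56 to 0.29 and *Alpl* from -0.23 to 0.18. Without both replicates 3, *Alpl* was -0.06. With voom, *Runx1* was 0.00, *Cbfb* -0.05, *Spp1* -0.17, *Ibsp* 0.04 and *Alpl* -0.10, and *Klf15* (0.45) no longer passed the study's thresholds. Apart from the counts given here and in the report, the block changed no call of a member. All genes tested lower numbered 448, but 1101 with voom, 722 with the block, and 282 to 1161 without 1 library. The higher genes numbered 181, but 338 without a filter, 444 with voom, 339 with the block, and 83 to 677 without 1 library. Without both replicates 3 the counts were 1261 lower and 750 higher. Depth was even and high, and every interval rests on 3 pooled libraries per group.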

Other observations

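Some listed genes were too low to test. *Sost*, the osteocyte gene that Mef2c activates, had 6, 7 and 14 counts in control and 4, 2 and 7 in cKO libraries. *Tnfsf11* (RANKL) had 1, 4 and 8 counts in control and 9, 5 and 12 in cKO libraries. *Ihh* had 5, 8 and 8 counts in control and 3, 1 and 4 in cKO libraries. *Bglap3*, a copy next to *Bglap* and *Bglap2*, had 6 counts in all libraries together. *Mef2b*, the Mef2 gene of lymphoid cells, had 46 counts, and *Sp8* had 4. The groups overlapped in *Sost* and *Tnfsf11*. In *Ihh* the highest cKO library lay below the lowest control library, with too few counts for a comparison.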
